A study of Mus musculus with 6 samples.

Results

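The AP-1 and immediate-early transcription factors described here are 10 genes: Fos, Fosb, Fosl1, Fosl2, Jun, Junb, Jund, Atf3, Egr1 and Maff. They were found as all array probes whose transcript accession maps to one of these symbols, which gave 11 probes of 39429 that were not controls, and 10 of 20659 named genes. Fosl2 had 2 probes and the other genes 1 each. The series profiled cultured CD63+ cells, sorted from mouse liver and named for a tetraspanin on their surface, in a study of liver stem cells and the lineages they give rise to. The design text speaks of cell lines. The DDC injury group has 3 arrays, of cells from livers injured with DDC, a porphyrin-inducing agent that damages the bile ducts. The no-injury group has 3 arrays, of cells from uninjured livers. Both groups were grown with serum, HGF, EGF, insulin and dexamethasone. Some cultures also received VEGF and bFGF, but the names given for them occur in none of the sample titles, so which arrays they stand behind is unknown and a part in the group differences cannot be told apart. The labels used here give the animals as adult mice, and no strain, sex or number of animals.

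AP-1 is a family of dimers. Jun proteins pair with each other or with Fos proteins through a leucine zipper, while Fos proteins need a Jun or another partner, and the dimer binds a short palindrome in enhancers and promoters. Many of these genes are switched on within minutes by serum and growth factors, through Ras-MAPK signalling, serum response factor and existing CREB and ATF proteins, and most of the messages are short-lived. In the liver, Jun and Fos are known for their part in regeneration and injury, and Jun for the survival of hepatocytes.

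RefSeq promoter windows (build GRCm38.p6) were matched for 8 of the 10 genes, and 4 are shown from 250 bases before the start site up to the start site, read 5′ to 3′ on the gene's own strand. Jun (chr4:95052223-95052472, minus strand) and Junb (chr8:84978749-84978998, minus strand) are shown because their signals moved in opposite directions. Fos (chr12:85473640-85473889, plus strand) and Atf3 (chr1:191183334-191183583, minus strand) are shown because their DDC injury arrays scattered. Capitals mark matches, on either strand, to the AP-1 heptamer TGANTCA, the CRE-like octamer TGANNTCA, the CRE core TGACG, the EGR site GCGNGGGCG and the CArG box of serum response factor.
Jun: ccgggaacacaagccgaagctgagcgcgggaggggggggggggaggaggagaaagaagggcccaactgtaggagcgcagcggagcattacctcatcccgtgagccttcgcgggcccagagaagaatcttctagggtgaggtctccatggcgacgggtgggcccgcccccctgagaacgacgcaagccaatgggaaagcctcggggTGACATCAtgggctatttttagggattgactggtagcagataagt
Junb: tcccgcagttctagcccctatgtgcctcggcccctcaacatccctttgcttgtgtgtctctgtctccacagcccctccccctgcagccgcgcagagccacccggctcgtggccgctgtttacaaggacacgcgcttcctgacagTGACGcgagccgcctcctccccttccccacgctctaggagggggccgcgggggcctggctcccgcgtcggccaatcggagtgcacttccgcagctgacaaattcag
Fos: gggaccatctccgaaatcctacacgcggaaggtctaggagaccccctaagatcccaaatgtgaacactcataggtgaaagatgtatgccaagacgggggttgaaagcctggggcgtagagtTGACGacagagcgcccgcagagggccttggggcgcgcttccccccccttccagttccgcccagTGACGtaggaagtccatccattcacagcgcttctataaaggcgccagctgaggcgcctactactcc
Atf3: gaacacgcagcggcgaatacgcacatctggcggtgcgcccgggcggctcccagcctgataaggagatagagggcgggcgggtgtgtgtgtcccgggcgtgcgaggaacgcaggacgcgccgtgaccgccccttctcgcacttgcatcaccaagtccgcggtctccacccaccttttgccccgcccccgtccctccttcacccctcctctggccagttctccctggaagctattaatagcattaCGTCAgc

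The Jun window held the octamer TGACATCA, which began 45 bases before the start site. Junb held 1 CRE core and Fos held 2, and the Atf3 window held 1, read on the opposite strand, which began 7 bases before the start site. Among the other windows, that of Jund held the octamer TGAAATCA, that of Fosb a CRE core and an EGR site, and that of Fosl2 an EGR site. Of the 3 windows of Maff, 1 held an EGR site and TGACGTCA, and both of its 2 CRE core matches lay inside that octamer. Another held TGACATCA and 1 CRE core, and the remaining window held no match. None of the 10 windows of the 8 genes held TGANTCA or a CArG box. Fosl1 and Egr1 had no matched window, and sequence further upstream was not searched for any gene. Of all 32851 RefSeq windows of 250 bases, 6.75% held the heptamer, 11.9% the octamer, 17.8% the CRE core, 4.7% the EGR site and 1.47% the CArG box. The octamer TGACGTCA also contains the CRE core on each strand and was counted under both motifs. A match is a string of letters and was not tested for binding.

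Signals are given as log2 of the scanner's processed signal minus the array's own 75th percentile, so that 0 is that percentile and 1 unit is a doubling. The percentile lay at 1441 to 2271 intensity units, 65.0% to 74.8% of the spots were well above background, and no spot was saturated. The sort marker Cd63 was well above background on all 6 arrays. Over 137 bright probes with at least 10 spots, the differences between no-injury replicates 1 and 3 were no larger than the noise between spots of one probe (chi-square test, 128.4 on 136 degrees of freedom, p = 0.666). Their mean therefore served as a single sample. The DDC injury arrays lay further apart, with pairwise differences of 5.4 to 15.8 times that noise, against 0.972 to 1.87 times between no-injury arrays. All comparisons are therefore of 3 DDC injury samples with 2 no-injury samples. Nothing in the labels says that the samples of a group came from separate animals, so p-values measure only the spread between these samples. DDC injury replicate 1 was scanned on another day than the other 5 arrays, and each scan held arrays of 1 group only.

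All 11 probes passed the filter on dim signals, and 9 were well above background on all 6 arrays. The others were the Fosl2 probe A_51_P507242, and Atf3, whose spot on DDC injury replicate 3 was marked as non-uniform and left out. After limma, with Benjamini-Hochberg adjustment over all 27441 tested probes at a threshold of 0.05, 2 of the 11 probes were higher (Fosl1 and Junb) and 2 lower (Jun and Jund) in the DDC injury group. Of all tested probes, 15.5% were called higher, 13.8% lower and 29.3% in either direction, and 4 of 11 is read against that share. By gene, with the brightest probe of each, 30.8% were called in either direction. The 3 DDC injury arrays and the 3 no-injury arrays did not overlap for 8 of the 11 probes, 4 above and 4 below. Of all tested probes, 61.1% showed no overlap, with 29.6% above and 31.6% below. The counts were 3 higher and 3 lower of 10 tested without DDC injury replicate 2. In that fit 5490 of all 26819 tested probes were higher and 4768 lower. They were 1 higher and 2 lower of 11 without DDC injury replicate 3, where 2433 of all 26447 were higher and 2220 lower. With no replicate left out, the median difference was 0.24 over the 11 probes and -0.10 over all tested probes. The former is the value of Atf3, whose SE was 1.35, and Fosl2 enters with 2 probes.

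**Figure D1:**
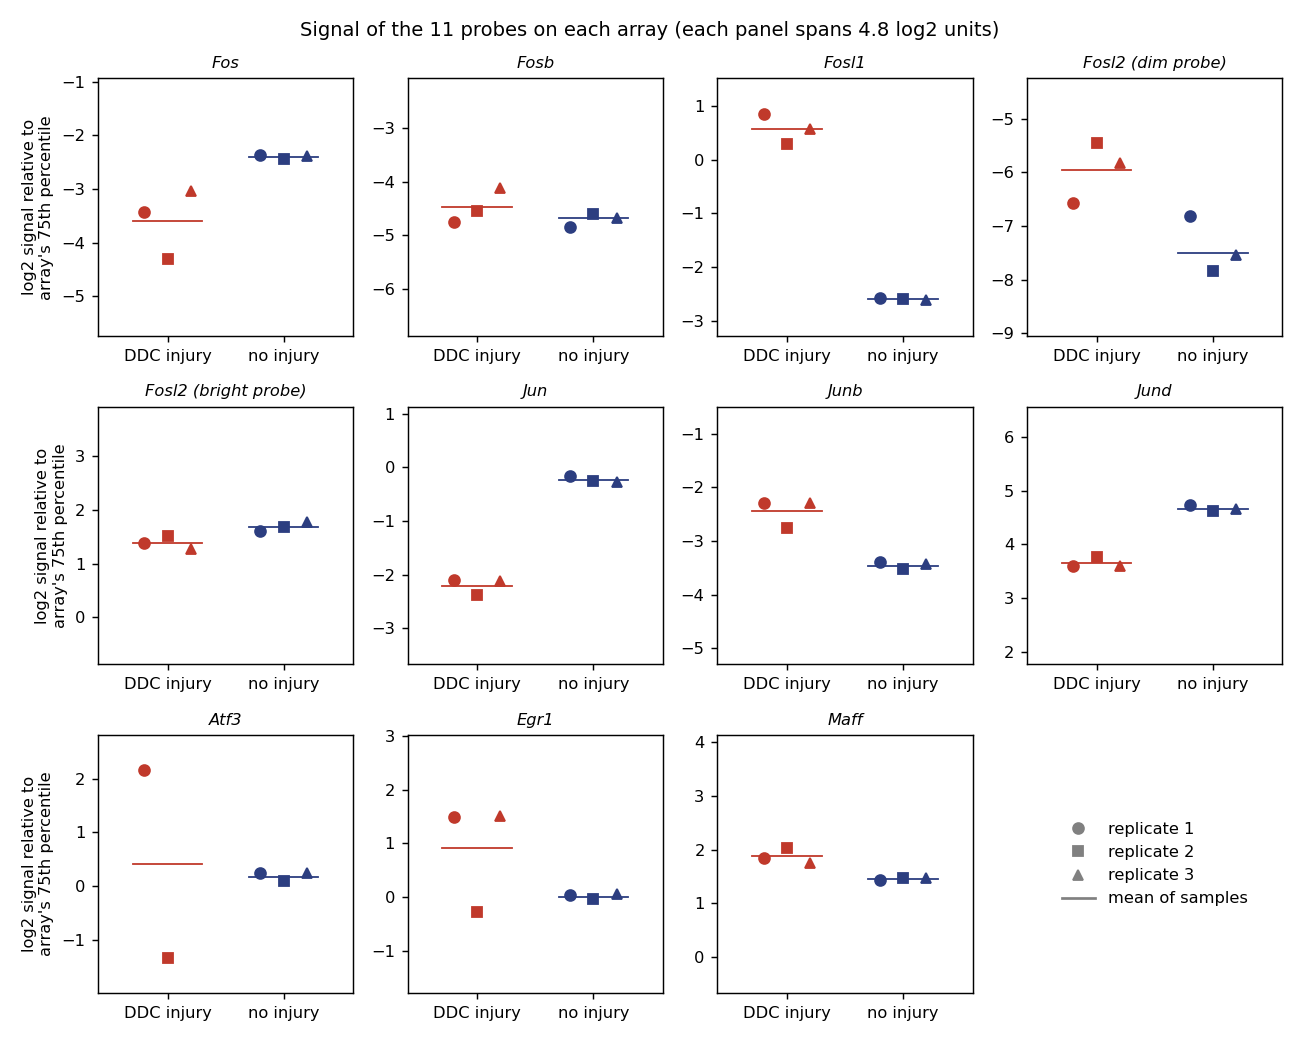
Log2 signal relative to the array's 75th percentile (vertical axes, each panel spanning the same log2 range) for the 11 probes, with DDC injury arrays on the left and no-injury arrays on the right of each panel. Symbols give the replicate and lines the mean of the samples (3 DDC injury samples, 2 no-injury samples). The Fosl1 and Junb arrays of DDC injury lie above the no-injury arrays and those of Jun and Jund below, while Atf3 and Egr1 scatter within the DDC injury group. Atf3 has no point for DDC injury replicate 3, whose spot was marked as non-uniform.

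Fosl1, which encodes Fra-1, a Fos-family partner of Jun proteins that lacks the strong activation domain of Fos, showed the largest difference of the 11 probes. Its signal was 0.85, 0.30 and 0.57 in DDC injury replicates 1, 2 and 3, against -2.58, -2.59 and -2.62 in no-injury replicates 1, 2 and 3. All DDC injury arrays lay about 3 units above the no-injury arrays, and the groups were far from overlapping. The mean was 0.57 ± 0.28 (SD, n = 3) in DDC injury and -2.59 ± 0.01 (SD, n = 2) in no injury. Fosl1 rose by 3.17 ± 0.20 on the log2 scale (SE of the fit, 8.98-fold, limma adjusted p = 0.00243). In intensity units the processed signal was 4104, 1770 and 2327 in DDC injury, against 345.9, 365.9 and 346.8 in no injury.

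Fos encodes the founding member of the family, a transient nuclear partner of Jun. Its probe was printed 10 times on each array, and the spread of the spots was 0.06 to 0.10 (SD, log2, 9 or 10 spots kept) on the DDC injury arrays and 0.05 to 0.25 on the no-injury arrays. Fos gave -3.43, -4.31 and -3.05 in DDC injury replicates 1, 2 and 3, against -2.37, -2.44 and -2.38 in no injury. Every DDC injury array was below every no-injury array, with replicate 2 the lowest. The mean difference was -1.19 ± 0.41 (95% interval -2.28 to -0.09), and it did not pass after adjustment over all probes (adjusted p = 0.0992 in limma). Without DDC injury replicate 2 the difference was -0.83 and passed (limma adjusted p = 0.0451), as it did with all 6 arrays counted separately (-1.20, limma adjusted p = 0.0333). Fos passed in only these 2 of 16 alternatives, and the latter counts no-injury replicates 1 and 3 as separate samples.

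None of the probes of the remaining Fos-family genes passed. Fosb encodes a Fos protein best known from neurons, with a truncated form that persists. It gave -4.75, -4.54 and -4.11 in DDC injury and -4.84, -4.61 and -4.68 in no injury, so the groups overlapped (difference 0.21 ± 0.23, limma adjusted p = 0.537, 95% interval -0.40 to 0.83). Fosl2 encodes Fra-2, which like Fra-1 lacks a strong activation domain, and its 2 probes, matched to the same transcript, went in opposite directions. The bright Fosl2 probe (A_55_P1995195) gave 1.40, 1.51 and 1.28 in DDC injury, against 1.61, 1.68 and 1.77 in no injury. The dim Fosl2 probe (A_51_P507242) gave -6.57, -5.46 and -5.82 in DDC injury, against -6.82, -7.84 and -7.54 in no injury, where it was well above background on 2 of 3 arrays. The groups did not overlap for either probe, and neither difference passed: -0.29 ± 0.12 (limma adjusted p = 0.154) for the bright probe and 1.56 ± 0.42 (limma adjusted p = 0.0545) for the dim one. The dim Fosl2 probe passed in 5 of 15 alternatives. It differed by 1.87 without DDC injury replicate 1 (limma adjusted p = 0.0177), by 1.75 without no-injury replicate 1 (limma adjusted p = 0.0324) and by 1.81 with quantile normalization (limma adjusted p = 0.0169). It differed by 1.45 with all 6 arrays counted separately, no-injury replicates 1 and 3 among them (limma adjusted p = 0.031). In the authors' deposited values it differed by 0.88 (limma adjusted p = 0.014). With normexp background correction the dim probe differed by 0.65 and did not pass (limma adjusted p = 0.153), and in the authors' deposited values the bright probe differed by -0.53 and passed (limma adjusted p = 0.0464). Where the probes lie in the transcript was not analysed here.

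Of the Jun family, 2 genes fell and 1 rose. Jun encodes the central AP-1 subunit, which can bind as a homodimer and is switched on by JNK kinases. Its signal was -2.10, -2.38 and -2.13 in DDC injury replicates 1, 2 and 3, against -0.16, -0.25 and -0.28 in no-injury replicates 1, 2 and 3. The 3 DDC injury arrays lay close together, about 2 units below the no-injury arrays. The fall of Jun was 3.91-fold, a log2 difference of -1.97 ± 0.14 (SE of the fit, limma adjusted p = 0.00307).

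Jund encodes the Jun protein that resting cells hold at a steady level and that is known to restrain growth. Jund gave 3.60, 3.76 and 3.60 in DDC injury, against 4.72, 4.62 and 4.66 in no injury. Both groups were tight and did not overlap. Jund fell 2-fold (SE 0.12 on the log2 scale, limma adjusted p = 0.00794).

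Junb encodes a weaker activator that can oppose Jun in cell cycle control. Junb gave -2.30, -2.75 and -2.29 in DDC injury replicates 1, 2 and 3, against -3.40, -3.52 and -3.43 in no injury. All DDC injury arrays were higher, with replicate 2 the lowest of them. Junb rose by 1.02 ± 0.19 (SE, 2.03-fold, limma adjusted p = 0.024). The call ended without DDC injury replicate 3 (0.94, limma adjusted p = 0.0718) and with the scan as a random block (1.03, limma adjusted p = 0.0571). With normexp background correction Junb differed by 0.65 and passed (limma adjusted p = 0.0346).

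Without DDC injury replicate 1, all arrays are from the second scan day, although the groups still lie in different scans. In that fit Fosl1 differed by 3.03, Jun by -2.02, Junb by 0.95 and Jund by -0.98, and all 4 passed (limma adjusted p = 0.00294 to 0.0329). Without no-injury replicate 2, the no-injury group is a single sample assumed to vary like the DDC injury group. The differences of Fosl1, Jun, Junb and Jund were then 3.17, -1.98, 0.97 and -1.04. When all 3 no-injury arrays were merged to a single sample, they were 3.17, -1.97, 1.00 and -1.01. The calls of these 4 probes did not hold with 1 no-injury sample, where few of all probes were called.

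**Figure D2:**
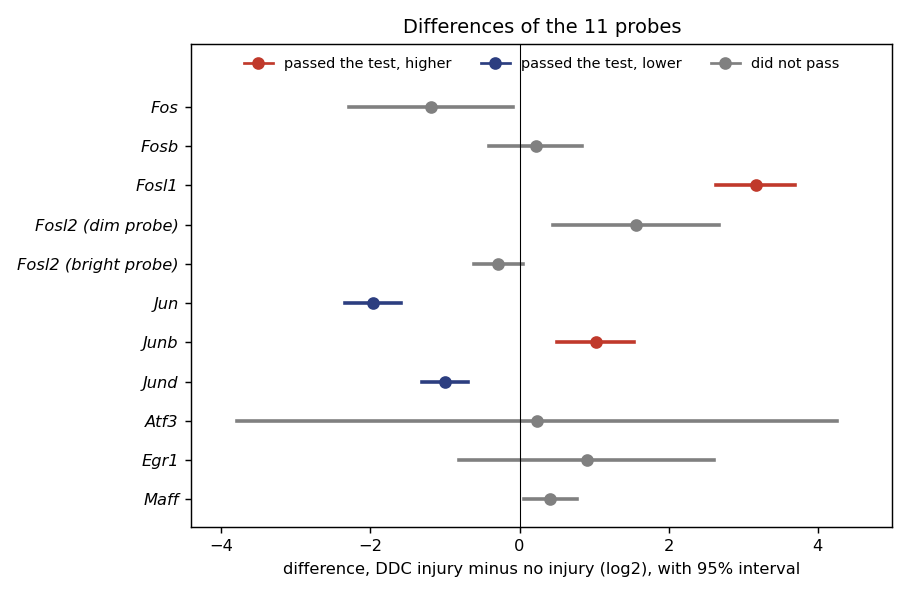
Difference between DDC injury and no injury on the log2 scale (horizontal axis) for the 11 probes, as points with 95% intervals from limma (3 DDC injury samples against 2 no-injury samples). The points of Fosl1 (3.17) and Junb (1.02) lie right of 0 and those of Jun (-1.97) and Jund left of it, and the interval of Atf3 is the widest.

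**Figure D3:**
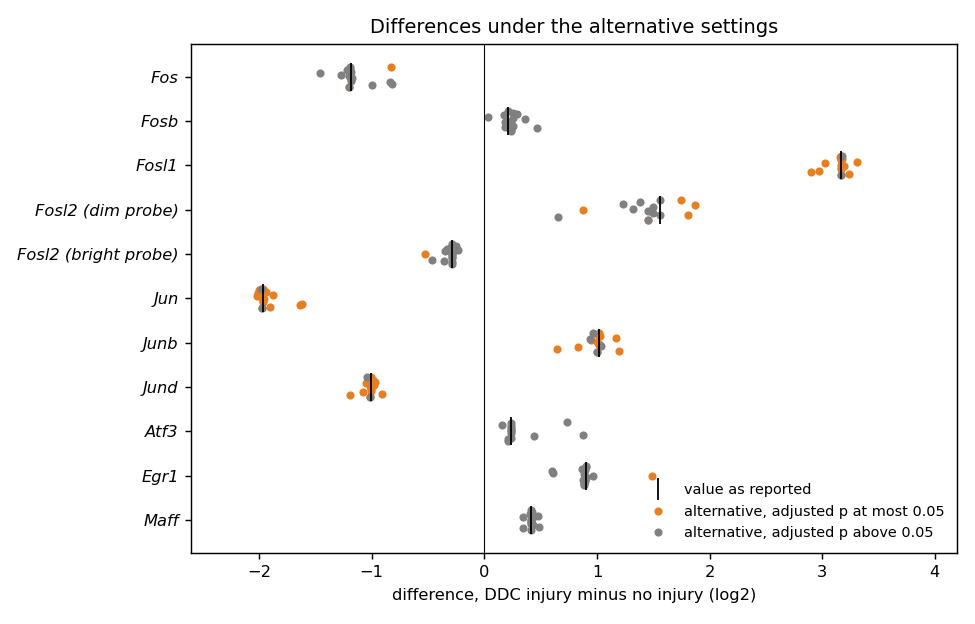
Difference between DDC injury and no injury on the log2 scale (horizontal axis) for the 11 probes, with the value as reported as a vertical bar and the values under the 16 other ways of processing as points, orange where the adjusted p was at most 0.05. No point lies on the other side of 0 from its bar, and Fosl1, Jun, Junb and Jund have both orange and grey points. The points of Fosl1 span 2.90 to 3.30 and those of Fosl2's dim probe 0.65 to 1.87.

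Atf3, a stress-induced CREB/ATF-family protein that pairs with Jun proteins, varied widely among the DDC injury arrays. Its signal was 2.16 in replicate 1 and -1.35 in replicate 2 of DDC injury, against 0.25, 0.09 and 0.25 in no injury. The spot of DDC injury replicate 3 was marked as non-uniform and left out, and it read 1.90. Replicate 2 of DDC injury lay below all no-injury arrays and replicate 1 above them. The difference was 0.24 ± 1.35 (limma adjusted p = 0.913, 2 DDC injury samples, 95% interval -3.78 to 4.26), and 0.74 ± 1.21 with the marked spot kept (limma adjusted p = 0.683). The SD over the 2 DDC injury arrays with a value was 2.48.

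Egr1, a zinc-finger factor induced by growth factors and serum, showed the same split. Egr1 gave 1.49, -0.27 and 1.50 in DDC injury replicates 1, 2 and 3, against 0.04, -0.03 and 0.05 in no injury. Replicates 1 and 3 were above all no-injury arrays, and replicate 2 was below them. The difference was 0.90 ± 0.64 (limma adjusted p = 0.354, 95% interval -0.81 to 2.61), and the SD over DDC injury arrays was 1.02, reached by 12.1% of all tested probes. Without DDC injury replicate 2, Egr1 differed by 1.49 and passed (limma adjusted p = 0.00575), the 1 of 16 alternatives where it did. It differed by 0.61 without replicate 1 and by 0.60 without replicate 3 of DDC injury (limma adjusted p = 0.495 and 0.554).

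Fos, Atf3 (of the 2 arrays with a value) and Egr1 had their lowest DDC injury signal in replicate 2, as did Fosl1, Jun and Junb, while Maff, Jund and both Fosl2 probes had their highest there. Of the other immediate-early genes listed, 12 of 34 were lowest in replicate 2 among the DDC injury arrays (35.3%), against 34% of all 15475 genes with a value on each of these arrays. These comparisons of replicates were made after the values were seen.

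Maff encodes a small MAF protein, which has no activation domain and pairs with NRF2-type and other bZIP proteins. Maff gave 1.85, 2.02 and 1.75 in DDC injury, against 1.44, 1.46 and 1.48 in no injury. All DDC injury arrays were slightly higher. The difference of 0.41 ± 0.13 did not pass (limma adjusted p = 0.0813, 95% interval 0.06 to 0.76). With all 6 arrays counted separately it passed (0.42, limma adjusted p = 0.0201).

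The profile of Fosl1 over the 6 arrays, centred on its mean, was nearest to those of Ndc80, Zwilch and Prr11 among 20171 named probes with a value on every array (root mean square distance 0.08, 0.09 and 0.09 log2 units). These genes differed by 3.26, 3.04 and 3.28. The profile of Jun was nearest to those of the clone 9430083A17Rik, Tm6sf2 and Hhat (distance 0.04, 0.05 and 0.06), which differed by -2.00, -2.05 and -1.93. All these probes share the same 6 arrays and a large difference between the groups.

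Other genes of the pathway were taken from 4 lists with 151 genes, each gene by its brightest probe. Over all 15665 genes tested in this way, 16.2% were higher and 14.6% lower, with a median difference of -0.07.

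Other immediate-early genes moved in both directions. Of 34 tested genes of 37, 6 rose (17.6%) and 7 fell (20.6%), with a median of -0.03. Ptgs2, the inducible cyclooxygenase, rose by 3.25 ± 0.36, with arrays at -1.72, -0.66 and -1.43 in DDC injury against -4.48, -4.59 and -4.44 in no injury (9.52-fold, limma adjusted p = 0.00701). Phlda1, a pleckstrin-domain protein linked to cell survival, rose by 1.04, the kinase Plk3 by 0.98 and the pseudokinase Trib1 by 0.87. Zfp36, which encodes tristetraprolin, a protein that speeds the decay of AU-rich messages, fell by 1.84 ± 0.20, with -3.41, -2.96 and -2.88 in DDC injury against -1.27, -1.25 and -1.22 in no injury (limma adjusted p = 0.00715). The GTPase Rhob fell by 0.89, the EGF receptor inhibitor Errfi1 by 0.63 and the clock gene Per1 by 0.63. Myc (0.19, limma adjusted p = 0.657) and the MAPK phosphatase Dusp1 (-0.58, limma adjusted p = 0.121) did not pass. Without DDC injury replicate 2, 10 genes rose and 10 fell, where 5490 of all 26819 tested probes were higher and 4768 lower. Without DDC injury replicate 3, 4 rose and 3 fell, where 2433 of all 26447 were higher and 2220 lower. The calls of this list did not hold with 1 no-injury sample. Egr3, Egr4 and Nr4a3 were too dim to be tested.

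Other bZIP factors, the structural relatives and partners of AP-1, also moved both ways. Of 35 tested genes of 36, 5 rose and 5 fell (14.3% each), with a median of 0.15. Cebpd, a C/EBP factor of the acute-phase response, fell by 3.49 ± 0.28, with -1.19, -1.86 and -1.09 in DDC injury against 2.09, 2.09 and 2.15 in no injury (11.2-fold lower, limma adjusted p = 0.00375). Maf fell by 2.34, the ER-membrane factor Creb3l1 by 2.20 and the NRF2 relative Nfe2l3 by 1.57. Creb1, Atf1 and the stress-response factor Atf4 rose by 1.34, 0.84 and 0.69. A second probe of Creb1 differed by -0.53 and did not pass (limma adjusted p = 0.104), nor did a second probe of Atf4 (1.28, limma adjusted p = 0.138). The AP-1 repressor Jdp2 (0.22, limma adjusted p = 0.642) and Batf, a Jun partner of lymphocytes that was well above background on 1 of 3 DDC injury arrays (-0.65, limma adjusted p = 0.55), did not pass. Without DDC injury replicate 2, 11 genes rose and 7 fell, where 5490 of all 26819 tested probes were higher and 4768 lower. Without DDC injury replicate 3, 1 rose and 4 fell, where 2433 of all 26447 were higher and 2220 lower. With 1 no-injury sample few genes of this list were called.

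Of 48 genes of Ras-MAPK signalling, serum response factor and its feedback regulators, all tested, 10 rose (20.8%) and 5 fell (10.4%), with a median of 0.15. The p38 kinase gene Mapk11 rose by 1.24 and its activator Map2k6 by 1.41. The ribosomal S6 kinase gene Rps6ka2 rose by 2.46 and the Ras inhibitor gene Spred2 by 0.70. Nab1 and Nab2, corepressors that bind EGR proteins, rose by 0.66 and 0.72 (limma adjusted p = 0.0243 and 0.0425). A second probe of Nab2 gave 1.29 and did not pass (limma adjusted p = 0.0517). Map3k1, a kinase upstream of JNK, fell by 1.34, the JNK phosphatase gene Dusp16 by 0.88 and Fbxw7, which encodes a ubiquitin ligase subunit for Jun, by 0.74. A second probe of Fbxw7 did not pass (-0.08, limma adjusted p = 0.906). Mapk8, which encodes JNK1, fell by 1.18 at its brightest probe, while another of its 3 probes was called higher (0.84, limma adjusted p = 0.0145) and the third did not pass (0.42). Srf, which encodes serum response factor (0.11, limma adjusted p = 0.561), and the ERK phosphatase gene Dusp6 (-0.70, limma adjusted p = 0.0842) did not pass. With DDC injury replicate 3 left out, 2 genes rose and 3 fell, where 2433 of all 26447 tested probes were higher and 2220 lower. With DDC injury replicate 2 left out, 15 rose and 9 fell, where 5490 of all 26819 were higher and 4768 lower. The calls of this list did not hold with 1 no-injury sample.

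Of 30 genes known as AP-1 targets, 26 were tested, and 11 rose (42.3%) and 0 fell in limma, where 1 had an unadjusted p under 0.05 on the lower side. The median was 0.68, against -0.07 over all genes. The list was chosen with earlier results of these data known. The lowest difference was that of Mt2 (-2.475), which did not pass (limma adjusted p = 0.136). Mmp13, a collagenase gene with an AP-1 site in its promoter, rose by 4.33 ± 0.80, with -0.19, -2.56 and -0.51 in DDC injury against -5.41, -5.45 and -5.38 in no injury (20.2-fold, limma adjusted p = 0.0225). Among the DDC injury arrays Mmp13 was lowest in replicate 2, whereas Ptgs2 was highest there. The stromelysin gene Mmp10 rose by 3.79 ± 0.39 and the metalloproteinase inhibitor gene Timp1 by 2.46 ± 0.12 (limma adjusted p = 0.00614 and 0.00165). The cyclin D1 gene Ccnd1 rose by 1.31 ± 0.16, with 5.01, 5.38 and 5.23 in DDC injury against 3.83, 3.98 and 3.79 in no injury (limma adjusted p = 0.00872). The chromatin protein gene Hmga1 rose by 2.09 and the methyltransferase gene Dnmt1 by 1.60, and 1 of the 3 probes of Hmga1 did not pass (-0.15, limma adjusted p = 0.939). Plaur, the urokinase receptor gene (0.78, limma adjusted p = 0.0525), Hbegf (0.02, limma adjusted p = 0.917) and Mmp3 (0.54, limma adjusted p = 0.697) did not pass, and Mmp9, Plau, Il6 and Tnc were too dim to be tested. Without no-injury replicate 2, 1 of these genes rose in limma, as it did with the 3 no-injury arrays averaged. Without DDC injury replicate 2, 15 rose and 2 fell, where 5490 of all 26819 tested probes were higher and 4768 lower.

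**Figure D4:**
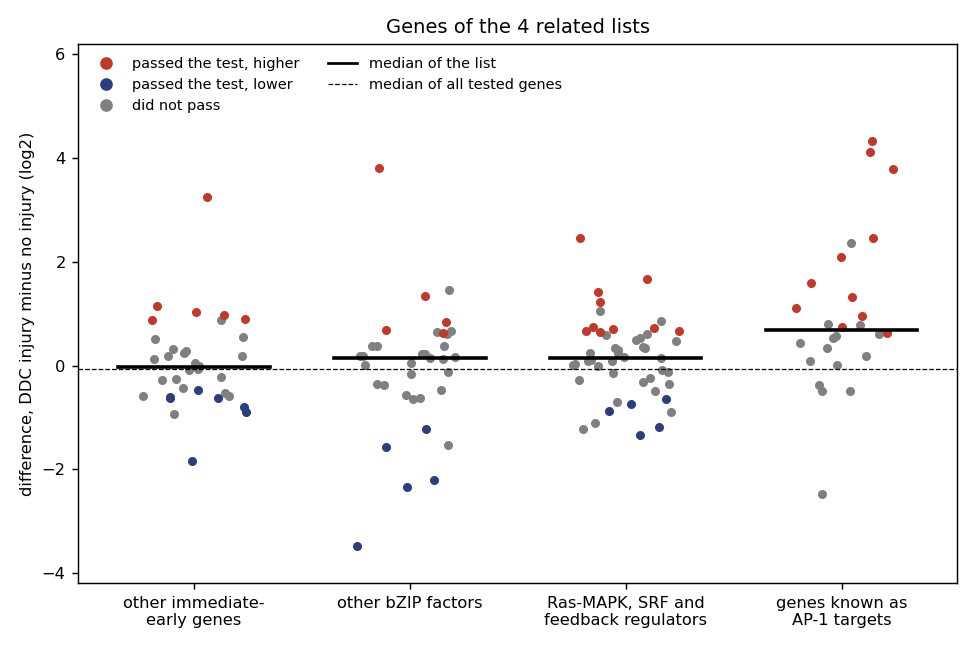
Difference between DDC injury and no injury on the log2 scale (vertical axis) for the tested genes of the 4 lists, 1 point a gene, spread sideways for legibility. Solid lines mark the median of each list and the dashed line that of all tested genes (-0.07). The list of AP-1 targets has 11 red points, called higher, and no blue point, and the other 3 lists have both.

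Markers of some liver cell types differed between the groups, and their part in these results was not tested. The summed signal of 8 hepatocyte markers was 11.1 to 17.7 times the 75th percentile in DDC injury and 29.7 to 34 times in no injury, and 3 of them were called lower. It was 51.1 to 56.3 against 64.3 to 66 for 8 cholangiocyte and progenitor markers, of which 4 were called lower, and 22.4 to 27.9 against 25.8 to 28.2 for 6 mesothelial markers, of which 3 were called lower. It was 0.238 to 0.678 against 1.7 to 1.94 for 7 macrophage markers, of which 1 was called lower and Clec4f was not well above background anywhere. For 8 endothelial markers the sum was 0.172 to 0.614 in DDC injury and 0.546 to 0.817 in no injury, and for 8 stellate and fibroblast markers 0.21 to 0.742 and 0.301 to 0.415, with Des and Reln not well above background on any array. For 7 lymphocyte markers it was 0.816 to 2.75 and 2.06 to 2.69, with Ms4a1 not well above background on any array. None of the markers in these last 3 lists was called. Such a sum is set mostly by the brightest markers. Of the macrophage markers, Itgam was called lower (-2.73). Csf1r (-1.54), Marco (-1.20), Adgre1 (0.01), Ptprc (0.36) and Lyz2 (0.95) did not pass. The bright mesothelial marker Msln (0.15) and hepatocyte marker Hnf4a (-0.09) did not pass either. Mesothelial Upk1b differed by -7.7 and Prom1, of the cholangiocyte and progenitor list, by -8.7. Fewer cells of a type and less RNA per cell cannot be told apart in these bulk samples.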

How the data were processed

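Gene expression of cultured cells was measured on 6 Agilent arrays of 1 colour (Cy3). The software was Feature Extraction 11.0.1.1, per the file headers, and the deposited processed signal used here is an intensity, background-subtracted within the array. The deposited value table holds log2 values that the authors normalized between arrays (column medians 6.921 to 6.927), and limma is named, without a version, in the submitters' processing notes. It was used as an alternative.

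Spots that the software had marked non-uniform or outlying were dropped, and the remaining spots of a probe averaged. Of 39429 probes, 27234 had 1 gene symbol through the RefSeq table of GRCm38.p6 and 12195 stay unnamed. The arrays' own annotation is of another build, so probe coordinates are not given, and those of the promoter windows are of GRCm38.p6. Testing required a signal well above background on 3 or more of the 6 arrays, and at least 2 values per group. The test was limma 3.58.1, run in R 4.3.3 (two-sided, prior degrees of freedom 1.4), 1 row per probe, and the fit was tested on simulated data. Differences are DDC injury minus no injury, with the standard error of the fit. A gene of a list is represented by its probe of highest mean. The number of arrays limits the precision.

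The members, the lists and the counting of no-injury replicates 1 and 3 as 1 sample were chosen with earlier results of these data known. Named genes are all members, a fixed set of partners and targets, and up to 4 genes each way with the smallest adjusted p in each list. One gene that this rule names is not reported here. The scanner files hold no mean signal, so normexp used the median signal.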

Additional observations from a re-analysis of the deposited data

How the results depend on the processing

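The signs of all 11 probe differences held under all 16 alternatives, of which keeping the marked spots was chosen after seeing the data, wherever the probe could be tested. The calls changed. Fosl1, Jun and Jund kept theirs except with 1 no-injury sample, and Junb lost its call in 4 alternatives (adjusted p = 0.0571 to 0.185). Adjusted p ranged from 0.000149 to 0.0558 for Fosl1, 0.000203 to 0.0665 for Jun, 0.000704 to 0.116 for Jund, 0.0045 to 0.185 for Junb, 0.0333 to 0.342 for Fos and 0.00575 to 0.644 for Egr1. The median difference over all probes was 0.08 with normexp background correction, against -0.10 as reported, and -0.04 with quantile normalization. The cause of these changes was not tested. Fits with a DDC injury replicate left out, or with the no-injury arrays averaged, also had fewer samples.

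With all 6 arrays counted separately, 4 of the 11 probes were higher, and the count of lower probes was 3. In that fit 6207 of all 27441 tested probes were higher and 5933 lower, so calls rose among all probes too. With the 3 no-injury arrays averaged, 0 and 0 were called in limma, with 4 at an unadjusted p under 0.05, and with the scan as a random block (correlation 0.334) 1 was higher. All probes called higher and lower numbered 4243 and 3789, and 5933 were lower with 6 separate arrays, 279 and 132 were higher and lower with the no-injury arrays averaged, 2495 were lower with no filter, and 2770 and 2278 were higher and lower with the scan as a block. Counts of list genes called higher and lower moved as follows. With 6 separate arrays, 10 bZIP genes were higher and 7 lower of 35 tested, and 18 MAPK genes higher and 10 lower of 48. Of 26 AP-1 targets 15 were higher and 1 lower, and of 34 immediate-early genes 6 were higher and 10 lower. With the no-injury arrays averaged, 1 bZIP gene and 1 AP-1 target were higher, and 0 in every other case in limma. With no filter, 2 immediate-early genes and 3 MAPK genes were lower and 4 MAPK genes higher. With the scan as a block, 3 immediate-early genes and 4 MAPK genes were higher and 2 immediate-early genes lower. In the authors' deposited values 1 AP-1 target was lower.

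Leaving out 1 replicate at a time gave 0 to 3 probes higher and 0 to 3 lower among the 11, and 290 to 5490 higher and 104 to 4841 lower among all probes. It gave 0 to 10 higher and 0 to 10 lower immediate-early genes, 1 to 11 and 0 to 7 bZIP genes, 0 to 15 and 0 to 9 MAPK genes, and 1 to 15 and 0 to 2 AP-1 targets. With all 6 arrays and the replicate number as a block, 2 probes were higher and 2 lower, 4360 and 4200 among all probes, and this replicate block moved no count above by over 1.5 times. Same-numbered arrays correlated by 0.122, 0.0358 and 0.0831 in their deviations from the group means and were taken to share only a number, and not every array correlated best with its own.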
